A study of Mus musculus with 6 samples.

Results

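The 32 genes described here are presynaptic and neuronal maturation genes, a fixed list taken by symbol from the 24848 genes in the tables. All 32 were expressed highly enough to be tested. They fall into 3 early neuronal genes (Dcx, Tubb3 and Stmn2), 7 genes of neuronal structure and identity (Map2, Gap43, Ncam1, Rbfox3, Nefl, Nefm and Ina) and 22 synaptic genes. The synaptic genes are 3 synaptotagmins, 4 SNARE proteins, 7 other vesicle proteins, 6 proteins of release and the active zone, and 2 neurexins.

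Messenger RNA was sequenced from dissected brains of mouse embryos at E14.5, where E stands for embryonic day. The labels do not say which parts of the brain were taken. The groups were E4f1 knockout (KO, 3 brains) and wild type (WT, 3 brains). The gene encodes a DNA-binding protein with zinc fingers, and the comparison addresses what its loss does to the brain's transcripts. The labels give no allele, deleted exons, Cre driver, strain, litter or sex, and do not say whether every brain cell carries the deletion. Each brain has its own animal number, but whether brains of a group come from separate litters is not stated, so p-values measure the spread between these 6 brains.

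A newborn neuron first switches on genes for its cytoskeleton, such as doublecortin and the neuronal beta tubulin, while it migrates and grows processes. Genes for transmitter release follow as axons reach their targets. At a synapse, vesicles carrying synapsins, synaptophysin, SV2 and Rab3 dock at an active zone built on Bassoon, Piccolo and RIM. Munc13 and complexin prepare the SNARE complex of synaptobrevin, syntaxin and SNAP-25, and calcium bound to synaptotagmin triggers fusion. At mid-gestation the mouse brain is still making neurons, and most synapses form later.

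The promoters below are shown for 4 genes that stand for the list: Dcx and Tubb3 as early neuronal genes, Map2 as a structural gene and Syn1 as a synaptic gene. Each is the 250 bases before a transcript start, read 5′ to 3′ along the gene's strand, from RefSeq on GRCm38.p6. They lie at chrX:143933220-143933469 on the minus strand for Dcx, chr8:123411303-123411552 on the plus strand for Tubb3, chr1:66175079-66175328 on the plus strand for Map2 and chrX:20920919-20921168 on the minus strand for Syn1. Capitals mark matches on either strand to 7 short motifs. The cAMP response element is TGACGTCA, and its core is TGACGT. The RE1 element, bound by the neuronal gene repressor REST, was searched by its left arm, TTCAGCACC. Its right arm is GGACAG. The GC box is GGGCGG, the TATA box is TATAAA, and the last motif is CCAAT.
Dcx: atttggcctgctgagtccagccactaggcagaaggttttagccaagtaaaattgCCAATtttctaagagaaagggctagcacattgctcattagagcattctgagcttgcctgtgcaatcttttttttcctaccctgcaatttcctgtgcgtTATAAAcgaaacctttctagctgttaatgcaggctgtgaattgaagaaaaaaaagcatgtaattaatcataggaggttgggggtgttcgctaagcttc
Tubb3: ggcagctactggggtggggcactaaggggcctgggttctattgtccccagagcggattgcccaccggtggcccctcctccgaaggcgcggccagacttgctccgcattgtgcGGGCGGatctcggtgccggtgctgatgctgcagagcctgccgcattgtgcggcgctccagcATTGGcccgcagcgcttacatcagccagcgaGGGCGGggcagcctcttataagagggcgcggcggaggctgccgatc
Map2: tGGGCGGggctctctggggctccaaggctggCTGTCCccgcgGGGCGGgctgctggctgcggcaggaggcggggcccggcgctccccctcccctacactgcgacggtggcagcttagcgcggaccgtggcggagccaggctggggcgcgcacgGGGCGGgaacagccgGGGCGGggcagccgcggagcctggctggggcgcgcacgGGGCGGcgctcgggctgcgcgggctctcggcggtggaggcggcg
Syn1: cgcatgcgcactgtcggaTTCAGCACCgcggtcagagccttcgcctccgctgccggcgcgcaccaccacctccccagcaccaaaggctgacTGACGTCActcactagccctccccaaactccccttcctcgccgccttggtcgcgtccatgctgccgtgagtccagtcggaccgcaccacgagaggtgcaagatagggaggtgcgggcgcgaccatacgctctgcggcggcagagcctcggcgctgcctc

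The Syn1 window holds the left arm of RE1 at 232 to 224 bases before the start and the full TGACGTCA at 159 to 152 bases before it. The TGACGT core is part of that same match, so the 2 motifs are not separate. The Map2 window holds 5 GC boxes and the right arm of RE1, and the Tubb3 window 2 GC boxes and a CCAAT on the opposite strand. The Dcx window holds a TATAAA at 98 to 93 and a CCAAT at 196 to 192 bases before the start. Measured from another listed Dcx start, that TATAAA lies at 193 to 188 bases. The Dcx and Map2 windows shown precede a start inside the gene, so they lie partly within the gene's coordinates. Of the 32 genes, 23 matched the promoter table, with 32 windows among 32851. GC boxes were in 16 of the 32 windows (50%), against 32.7% of all windows. CCAAT was in 8 (25%), against 33.8%, and GGACAG in 7 (21.9%), against 18.7%. TTCAGCACC was in the Syn1 window alone, against 0.301% of all windows, and TGACGTCA likewise, against 1.55%. TGACGT was in 3 windows (9.38%), of Rab3a, Sncb and Syn1, against 6.47% of all windows, and TATAAA in 4 windows (12.5%), of Dcx and Sv2b, against 12.4%. Median GC content was 57.2% in the windows of the list and 52.4% in all windows. These matches are descriptions of letters, and binding was not measured.

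Libraries held between 50186590 and 69068011 expected counts in KO and between 42113465 and 74064707 in WT. E4f1 (chromosome 17, 24443778 to 24455392, GRCm38) had 7.12, 7.01 and 6.92 CPM (counts brought to a common library size with TMM scaling) in KO 1 to KO 3, against 20.7, 21.6 and 21.5 CPM in WT 1 to WT 3. It fell by 1.60 ± 0.08 on the log2 scale (SE from 3 brains a group, edgeR adjusted p = 0.00142). Xist and Ddx3y put KO 1, KO 3 and WT 1 apart from KO 2, WT 2 and WT 3 by sex, and Dcx, Syp and Syn1 are X-linked. The brains also differed in regional genes: the midbrain genes En1, En2 and Pax5 summed to 0.266, 1.61 and 1.16 CPM in KO 1 to KO 3, against 69.9, 33.9 and 3.07 CPM in WT 1 to WT 3. Every KO brain thus lay below every WT brain, with WT 3 close to KO. Thalamic markers summed to 135, 395 and 36.5 CPM in KO, against 560.4, 357 and 461 CPM in WT.

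In KO brains, 28 of the 32 genes had a negative fold change, but none was called changed by edgeR's quasi-likelihood test at an adjusted p below 0.05. The median log2 fold change over the list was -0.31, beside -0.0008 over all 15848 tested genes, of which 50.1% had a negative fold change. Over all genes edgeR called 159, of which 81 were higher (0.511% of genes tested) and 78 lower (0.492%), and with scaling by library totals 123 higher and 63 lower. At an unadjusted p below 0.05, 9 of the 32 genes were lower in KO, beside 9.31% of all genes, and 0 were higher, beside 10.3%. DESeq2 called 5 lower (Dcx, Tubb3, Map2, Ncam1 and Nefm), beside 4.06% of all genes lower, and 0 higher, beside 4.81%. Limma on log2(TPM + 1) called Dcx and Map2 lower, beside 0.817% of all genes lower.

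Of the 10 early and structural genes, all 10 had negative fold changes (median -0.49), with Rbfox3 near 0 and positive under scaling by library totals or upper quartile, and of the 22 synaptic genes 18 were negative (median -0.21). KO and WT brains did not overlap, with KO lower, in 9 genes (Dcx, Tubb3, Stmn2, Map2, Ncam1, Nefm, Syt4, Syt11 and Vamp2), beside 13.0% of all genes. No gene of the list had every KO brain above every WT brain, beside 14.6% of all genes. Single brains carried part of this: without WT 2 the median over the list was -0.12 with 10 of 32 fold changes positive, without KO 3 -0.21, and without WT 1 -0.45. In bulk brain tissue, fewer cells of a type and less RNA per cell cannot be told apart.

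**Figure D1:**
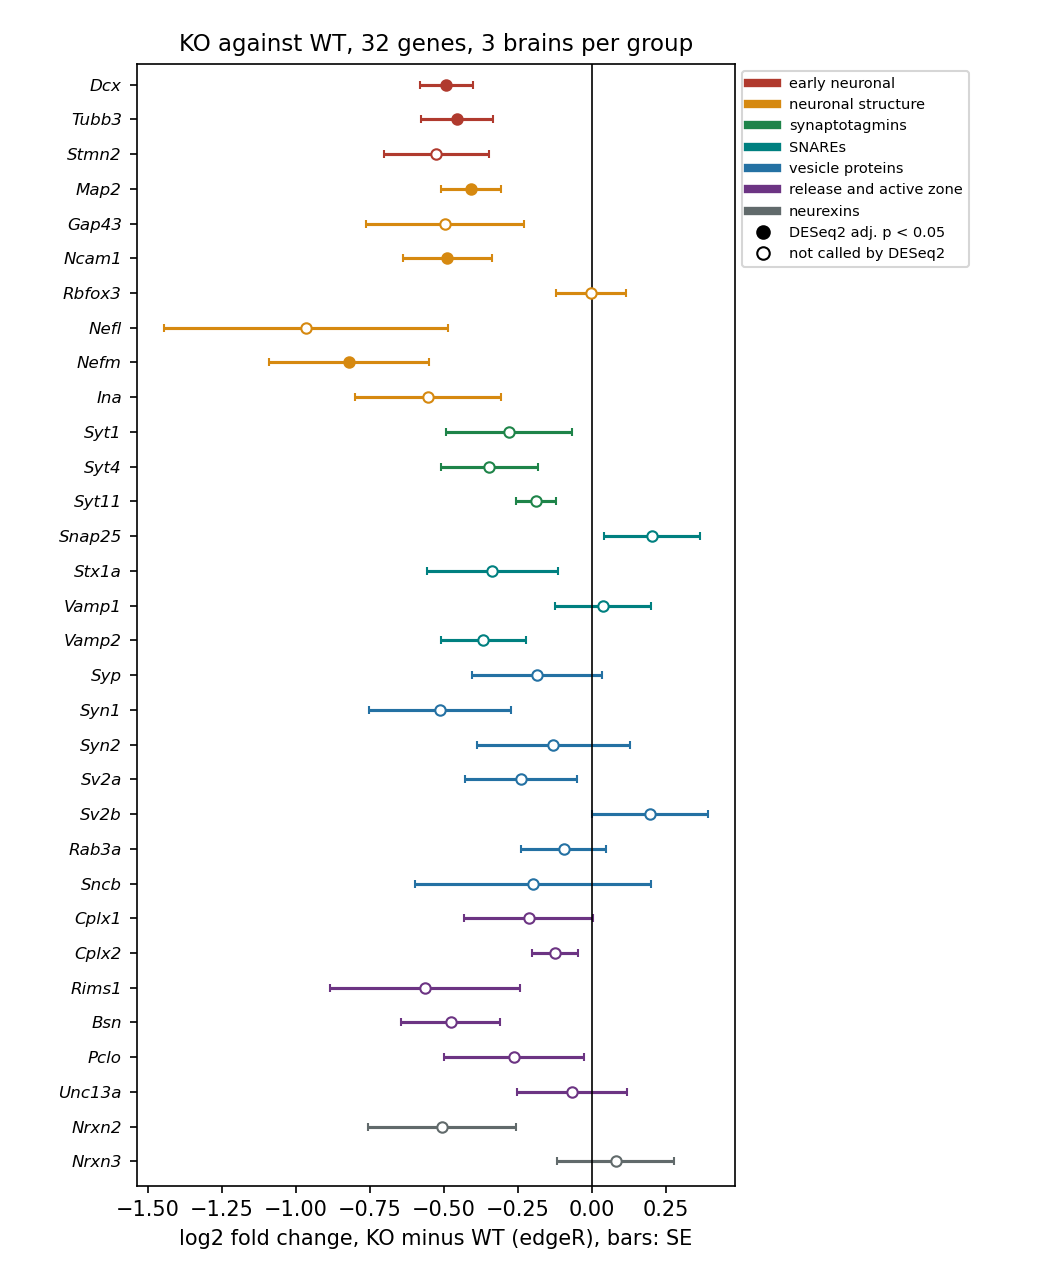
Log2 fold changes of KO over WT from edgeR for the 32 genes, with bars of 1 SE; filled points were called by DESeq2 at an adjusted p below 0.05. Of the 10 early and structural genes, Rbfox3 lies at about 0 (positive with scaling by library totals or upper quartile) and the others are negative, down to -0.97 for Nefl, and the synaptic genes lie between -0.56 for Rims1 and 0.20 for Snap25.

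Dcx, which encodes the microtubule protein doublecortin of migrating neurons (chromosome X, 143855842 to 143933396), had 1368, 1379 and 1470 CPM in KO brains, against 1797, 1990 and 2146 CPM in WT brains. The groups were far apart, with the highest KO brain below the lowest WT brain, and KO stood at 0.711 of WT. Its log2 fold change of -0.49 ± 0.09 had the smallest adjusted p of the list in edgeR, 0.0678, and DESeq2 gave an adjusted p of 7.65e-05. The log2(TPM + 1) values gave an adjusted p of 0.0354 with limma.

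Tubb3, the neuronal beta tubulin (chromosome 8, 123411553 to 123422015), had 1258, 1506 and 1110 CPM in KO, against 1733, 1860 and 1721 CPM in WT. No KO brain reached the lowest WT brain (log2 fold change -0.46 ± 0.12, edgeR adjusted p = 0.138, DESeq2 adjusted p = 0.0135). Beta tubulin genes share coding sequence, and the counting divides reads that fit several genes by estimate. How many Tubb3 reads were divided in this way was not tested. Stmn2, a microtubule regulator of growing axons (chromosome 3, 8509527 to 8561604), had 469, 543 and 395 CPM in KO, against 583, 831 and 612 CPM in WT. The groups did not overlap, though KO 2 came close to WT 1 (log2 fold change -0.53 ± 0.18, edgeR adjusted p = 0.192, DESeq2 adjusted p = 0.0531). The sum of the 3 early genes was 3096, 3428 and 2976 CPM in KO, against 4113, 4682 and 4479 CPM in WT.

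**Figure D2:**
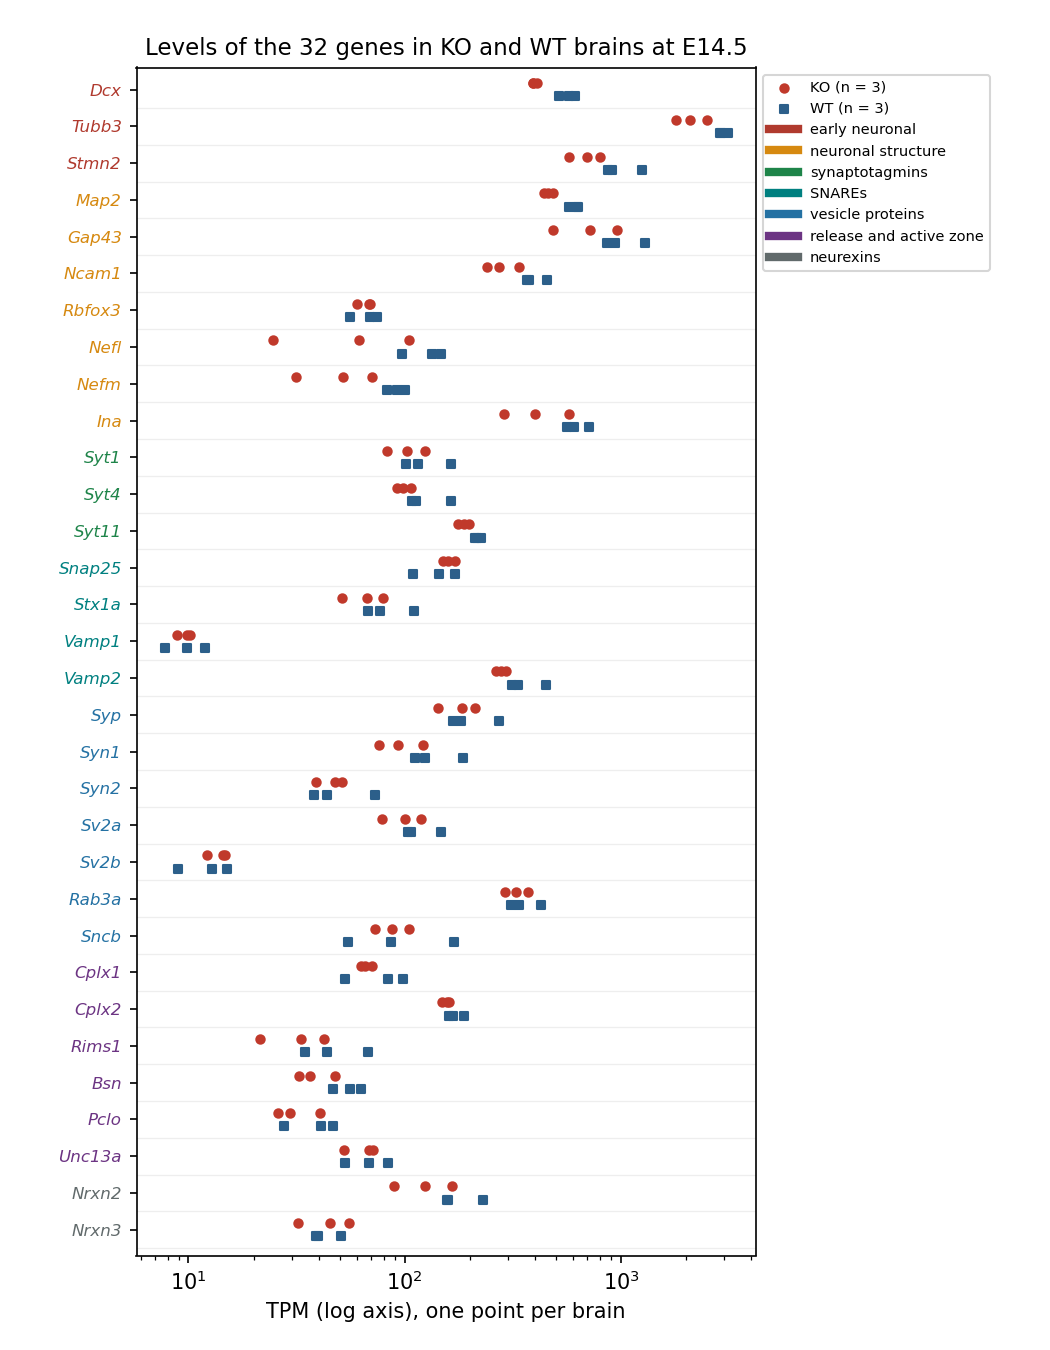
TPM of each of the 32 genes (log axis) in 3 KO brains (circles, above) and 3 WT brains (squares, below), with gene names coloured by role. Tubb3 is the highest gene, with means of 2130 TPM in KO and 2965 TPM in WT, and Vamp1 the lowest, with 9.63 TPM in KO and 9.82 TPM in WT.

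Among the structural genes, Map2, which binds dendritic microtubules (chromosome 1, 66175202 to 66442583), had 1304, 1432 and 1214 CPM in KO, against 1581, 1866 and 1796 CPM in WT. All KO brains lay below all WT brains (log2 fold change -0.41 ± 0.10, edgeR adjusted p = 0.120, DESeq2 adjusted p = 0.00592). Ncam1, a neural adhesion molecule (chromosome 9, 49502129 to 49799393), had 691, 873 and 625 CPM in KO, against 969, 1162 and 941 CPM in WT. The groups again did not overlap (log2 fold change -0.49 ± 0.15, edgeR adjusted p = 0.169, DESeq2 adjusted p = 0.0316). Gap43, a growth cone protein, had 309, 418 and 214 CPM in KO, against 402, 553 and 373 CPM in WT, and its KO 2 value lay inside the WT range.

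Nefl and Nefm, both neurofilament genes, had the most negative fold changes of the 32 genes. Nefm, the medium neurofilament subunit (chromosome 14, 68119545 to 68125004), had 62.0, 85.2 and 38.9 CPM in KO, against 120.1, 109 and 99.5 CPM in WT, with no overlap (log2 fold change -0.82 ± 0.27, edgeR adjusted p = 0.186, DESeq2 adjusted p = 0.0338). Nefl, the light subunit and its neighbour on that chromosome, had 43.5, 74.7 and 18.0 CPM in KO, against 94.2, 103 and 68.9 CPM in WT. KO 2 lay above WT 3 (log2 fold change -0.97 ± 0.48, edgeR adjusted p = 0.323). Ina, the internexin that neurons make before the other neurofilaments, had 325, 473 and 240.0 CPM in KO, against 579, 488 and 457 CPM in WT (log2 fold change -0.55 ± 0.25). KO 3 was the lowest KO brain for all 7 structural genes. That brain also had the lowest thalamic sum and the highest sum of meningeal markers. Meningeal sums were 446, 636 and 5220 CPM in KO 1 to KO 3, against 556, 2639 and 1072 CPM in WT 1 to WT 3. The part of these cells in the levels of the structural genes was not tested. Rbfox3, the nuclear antigen NeuN of postmitotic neurons, had 90.3, 90.0 and 79.0 CPM in KO, against 73.2, 96.9 and 89.8 CPM in WT. Its log2 fold change was -0.0029 ± 0.12.

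Synaptotagmins are the calcium sensors and related proteins of vesicle membranes. Syt1, the fast calcium sensor of release, had 184, 225 and 154 CPM in KO, against 183, 293 and 207 CPM in WT, and the groups overlapped (log2 fold change -0.28 ± 0.21). Syt4, a synaptotagmin also found on dense-core vesicles, had 144, 158 and 139.5 CPM in KO, against 165, 238 and 159 CPM in WT, where KO 2 and WT 3 nearly touched. Syt11, a synaptotagmin without calcium binding, had 327, 345 and 314 CPM in KO, against 387, 363 and 374 CPM in WT. Both groups were narrow and apart (log2 fold change -0.19 ± 0.07, edgeR adjusted p = 0.204, DESeq2 adjusted p = 0.105).

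The SNARE genes did not share a direction. Snap25, the plasma membrane SNARE SNAP-25, had 129, 115 and 124 CPM in KO, against 82.0, 129 and 109 CPM in WT. Its fold change was the most positive of the list, 0.20 ± 0.16, and the KO brains lay within the WT range or just above WT 2. Vamp2, synaptobrevin 2 (chromosome 11, 69088528 to 69092381), had 205, 230 and 222 CPM in KO, against 241.9, 347 and 259 CPM in WT. Every KO brain lay below every WT brain (log2 fold change -0.37 ± 0.14, edgeR adjusted p = 0.237, DESeq2 adjusted p = 0.131). Vamp1, synaptobrevin 1, had 11.5, 11.9 and 10.7 CPM in KO, against 11.1, 13.3 and 8.84 CPM in WT, a fold change of 0.04 ± 0.16 that was negative on the TPM scale. Stx1a, syntaxin 1A, had 53.4, 64.0 and 42.4 CPM in KO, against 53.7, 86.9 and 61.3 CPM in WT, which overlapped.

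Of the 7 other vesicle genes, 6 had negative fold changes and all 7 overlapped between the groups. Syn1, synapsin 1, which ties vesicles together (chromosome X, 20860511 to 20920918, with the RE1 arm shown above), had 111, 145 and 92.5 CPM in KO, against 132, 219 and 146 CPM in WT. KO 2 lay above WT 1 and close to WT 3 (log2 fold change -0.51 ± 0.24, edgeR adjusted p = 0.300, DESeq2 adjusted p = 0.187). Syn2, synapsin 2, had 62.9, 69.3 and 52.5 CPM in KO, against 49.1, 95.5 and 57.8 CPM in WT, so its KO brains all lay inside the WT range. Syp, the vesicle protein synaptophysin, had 166, 192 and 133 CPM in KO, against 149, 244 and 165 CPM in WT. The vesicle glycoprotein genes Sv2a and Sv2b had log2 fold changes of -0.24 ± 0.19 and 0.20 ± 0.20, and Rab3a, the vesicle GTPase, -0.10 ± 0.14. Sv2a had 148, 176 and 119 CPM in KO, against 157, 214 and 152 CPM in WT, and Rab3a 160.5, 184 and 146 CPM in KO, against 151, 208 and 165 CPM in WT. Sv2b, which was lower than Sv2a by TPM in every brain, had 30.5, 25.6 and 31.0 CPM in KO, against 18.6, 31.1 and 26.5 CPM in WT, so its highest values were nearly equal in both groups. Sncb, beta-synuclein, had 34.1, 41.2 and 29.2 CPM in KO, against 21.2, 65.4 and 33.6 CPM in WT, the widest relative WT spread of the list (log2 fold change -0.20 ± 0.40).

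All 6 genes of release and the active zone had negative fold changes, Unc13a not so with scaling by library totals, and the groups overlapped in all 6. Bsn, the scaffold Bassoon (chromosome 9, 108096022 to 108190419), had 229, 300.3 and 209 CPM in KO, against 291, 388 and 349.6 CPM in WT. KO 2 alone lay above the lowest WT brain (log2 fold change -0.48 ± 0.17, edgeR adjusted p = 0.204, DESeq2 adjusted p = 0.0745). Pclo, the related scaffold Piccolo, had 201, 278 and 183 CPM in KO, against 191, 320 and 284 CPM in WT, and overlapped widely. Rims1, the active zone protein RIM1, had 22.5, 29.4 and 15.1 CPM in KO, against 23.7, 45.9 and 29.7 CPM in WT (log2 fold change -0.56 ± 0.32). Unc13a, the priming factor Munc13-1, had 210.4, 223 and 166 CPM in KO, against 163, 255 and 210.0 CPM in WT, and a log2 fold change of -0.07 ± 0.19 that was 0.0006 with scaling by library totals. Complexins clamp and aid the SNARE complex, and Cplx1 and Cplx2 had log2 fold changes of -0.21 ± 0.22 and -0.13 ± 0.08. The KO brains of Cplx1, at 55.6, 49.95 and 53.0 CPM, lay inside the WT range of 41.3 to 76.7 CPM. Cplx2 had the narrowest spread of the release genes, with 300.2, 283 and 303 CPM in KO, against 300.1, 351 and 315 CPM in WT.

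Neurexins are presynaptic adhesion receptors. Nrxn2 (chromosome 19, 6418756 to 6533217) had 315, 423 and 233 CPM in KO, against 398, 579.7 and 402 CPM in WT (log2 fold change -0.51 ± 0.25, edgeR adjusted p = 0.322). KO 2 lay inside the WT range and the other KO brains below it. Nrxn3 had 131, 161 and 96.3 CPM in KO, against 110.0, 142 and 115 CPM in WT (log2 fold change 0.08 ± 0.20), and its KO range enclosed the WT range.

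**Figure D3:**
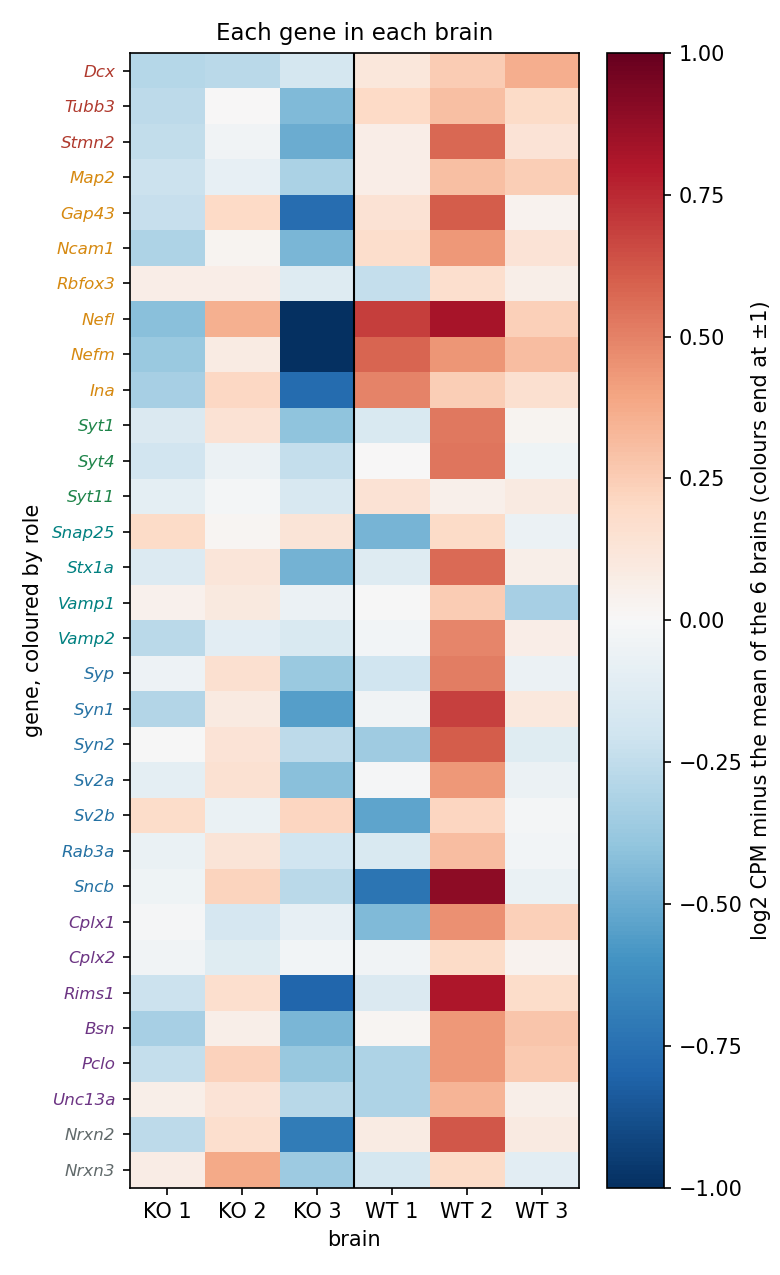
Log2 CPM of each gene in each brain minus that gene's mean over the 6 brains, KO brains left and WT brains right, with colours ending at ±1. WT 2 is the reddest column and KO 3 the bluest: WT 2 was the highest WT brain for 28 of 32 genes and KO 3 the lowest KO brain for 26.

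Within each group, the synaptic genes largely shared their high and low brains. WT 2 was the highest WT brain for 21 of the 22 and WT 1 the lowest for 18, while KO 2 was the highest KO brain for 18 and KO 3 the lowest for 17. By Xist and Ddx3y, KO 2 and WT 2 differed in sex from KO 3 and WT 1. The part of sex in these ranks was not tested. The mean log2 CPM of the 22 synaptic genes was 6.76, 6.94 and 6.56 in KO 1 to KO 3, against 6.67, 7.29 and 6.88 in WT 1 to WT 3. The difference between the group means, -0.19, was smaller than the SD of the WT brains, 0.32. For the 3 early genes the means were 9.86, 10.02 and 9.76 in KO, against 10.25, 10.51 and 10.36 in WT, a difference of -0.49 with SDs of 0.13 in both groups. For the structural genes they were 7.76, 8.14 and 7.28 in KO, against 8.29, 8.45 and 8.19 in WT, a difference of -0.59 with an SD of 0.43 in KO.

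Relative to the early neuronal genes, synaptic transcripts were higher by value in KO. Synaptic minus early log2 CPM was -3.10, -3.09 and -3.19 in KO 1 to KO 3, against -3.58, -3.21 and -3.48 in WT 1 to WT 3. KO averaged -3.13 ± 0.06 and WT -3.43 ± 0.19 (SD, n = 3 each), and the brains did not overlap, although KO 3 and WT 2 lay close together. The difference of 0.30 ranged between 0.22 without WT 1 and 0.41 without WT 2. Its sign was kept in all 20 alternatives, but most of them could not have changed it. Scaling of libraries cancels within a brain, and leaving out 1 brain cannot turn the sign where groups do not overlap. The difference is a score over chosen genes and carries no p. Markers of dividing cells (6 genes such as Mki67 and Top2a) summed to 1013, 810 and 1076 CPM in KO, against 909, 470 and 844 CPM in WT, lowest in WT 2, where the synaptic mean was highest. Their part in the difference was not tested.

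**Figure D4:**
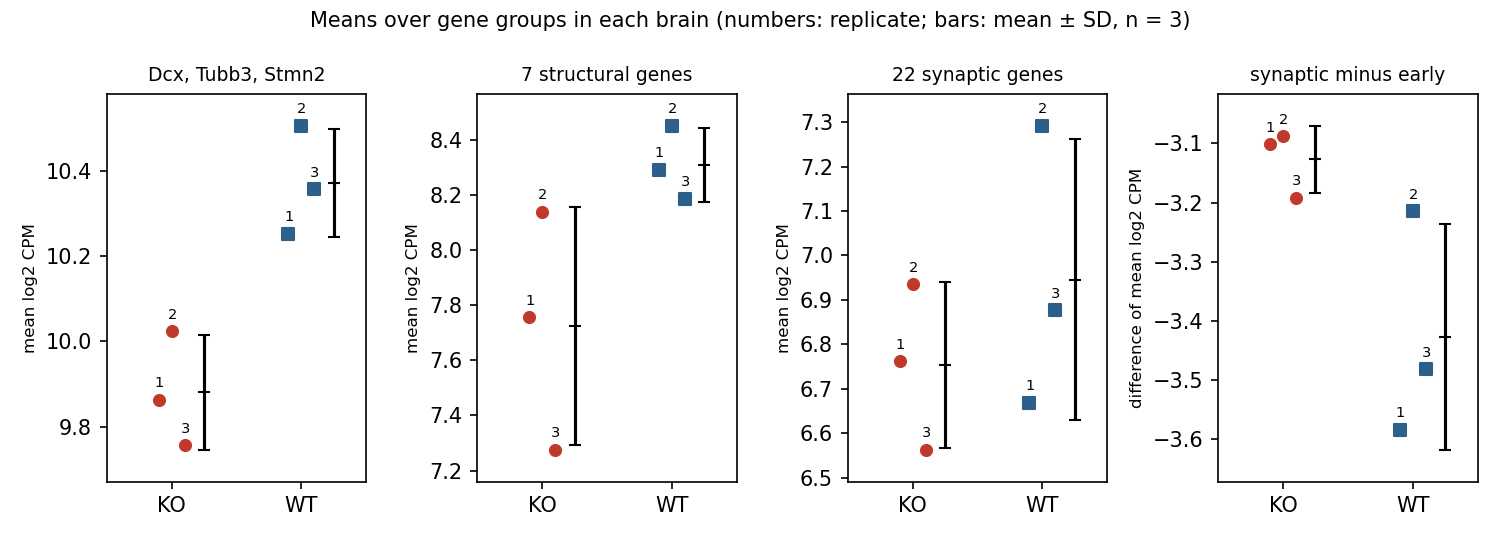
Mean log2 CPM of the early, structural and synaptic genes, and synaptic minus early, in each KO (circles, left) and WT (squares, right) brain, numbered by replicate, with the mean ± SD of 3 brains. The early and structural means separate the groups, the synaptic means overlap, and synaptic minus early averages -3.13 in KO and -3.43 in WT.

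Compared per length, in TPM, the order of the 32 genes differed little between the groups. Tubb3, Gap43 and Stmn2 led in both, with means of 2130, 721 and 691 TPM in KO (SDs of 347, 239 and 115), against 2965, 1030 and 1010 TPM in WT (SDs of 135, 226 and 205). Gap43 and Stmn2 differed by less than their spread. Map2, Ina and Dcx followed, at 461, 421 and 397 TPM in KO, against 612, 627 and 568 TPM in WT. The most abundant synaptic transcripts were those of Vamp2 (279 TPM in KO, 366 in WT) and Rab3a (329.6 TPM in KO, 357 in WT). The active zone genes Rims1 and Pclo lay near the bottom. Rims1 had 32.2 TPM in KO, against 48.6 in WT, and Pclo 32.04 TPM in KO, against 38.5 in WT. The mean length of the counted transcripts was 1938.5 bases for Rims1 and 17290.9 bases for Pclo in KO. Nefl and Nefm held places 24 and 25 in KO, against 18 and 21 in WT.

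Ratios between related genes did not overlap between the groups in 4 of 9 pairs, all lower in KO, as a description without a test. The pairs, and which gene was divided by which, were chosen, and the share over other pairs of genes was not computed. Among single genes, 13.0% of all genes did not overlap with KO lower and 14.6% with KO higher. Nrxn2 over Nrxn3 in TPM was 2.747, 2.995 and 2.755 in KO, against 4.02, 4.52 and 3.97 in WT. Both groups were tight, with 2.83 ± 0.14 in KO and 4.17 ± 0.31 in WT (SD, n = 3 each), although each gene by itself overlapped. Syn1 over Syn2 was 1.97, 2.37 and 1.95 in KO, against 2.96, 2.54 and 2.83 in WT. Vamp2 over Vamp1 was 26.9, 28.9 and 31.4 in KO, against 31.9, 37.9 and 43.1 in WT, with KO 3 just below WT 1. Bsn over Pclo was 1.24, 1.17 and 1.25 in KO, against 1.70, 1.34 and 1.36 in WT. The pairs Sv2a and Sv2b, Cplx2 and Cplx1, Nefm and Nefl, Syt11 and Syt1, and Syt1 and Syt4 overlapped.

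The tables also give a mean transcript length per gene, weighted by the estimated share of each transcript, which moves when transcript use shifts. Of the 32 genes, 16 had at least 2 listed transcripts and none of these was called by limma at an adjusted p below 0.05, beside 10 of 6328 genes (0.158%). At an unadjusted p below 0.05, 3 of the 16 differed (Vamp1, Pclo and Nrxn2), beside 12.6% of all genes tested for length. Vamp1 transcripts averaged 3148, 3135 and 3147 bases in KO, against 3072, 3046 and 3079 bases in WT. The groups were well apart, with a difference of 2.53% (limma adjusted p = 0.0950). Pclo averaged 17286, 17244 and 17343 bases in KO, against 17697, 17521 and 17512 bases in WT, which was 1.62% shorter by value in KO (percent difference -1.62, limma adjusted p = 0.191). Nrxn2 differed by -0.205% (limma adjusted p = 0.209). Brains did not overlap with KO longer in 2 genes (Vamp1 and Nrxn3), beside 9.78% of all genes, and with KO shorter in 3 (Syt1, Pclo and Nrxn2), beside 9.89%. For Nrxn3, WT 3 at 7485 bases lay next to the KO brains at 7486, 7489.7 and 7486 bases, while WT 1 and WT 2 had 7321 and 7291 bases.

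**Figure D5:**
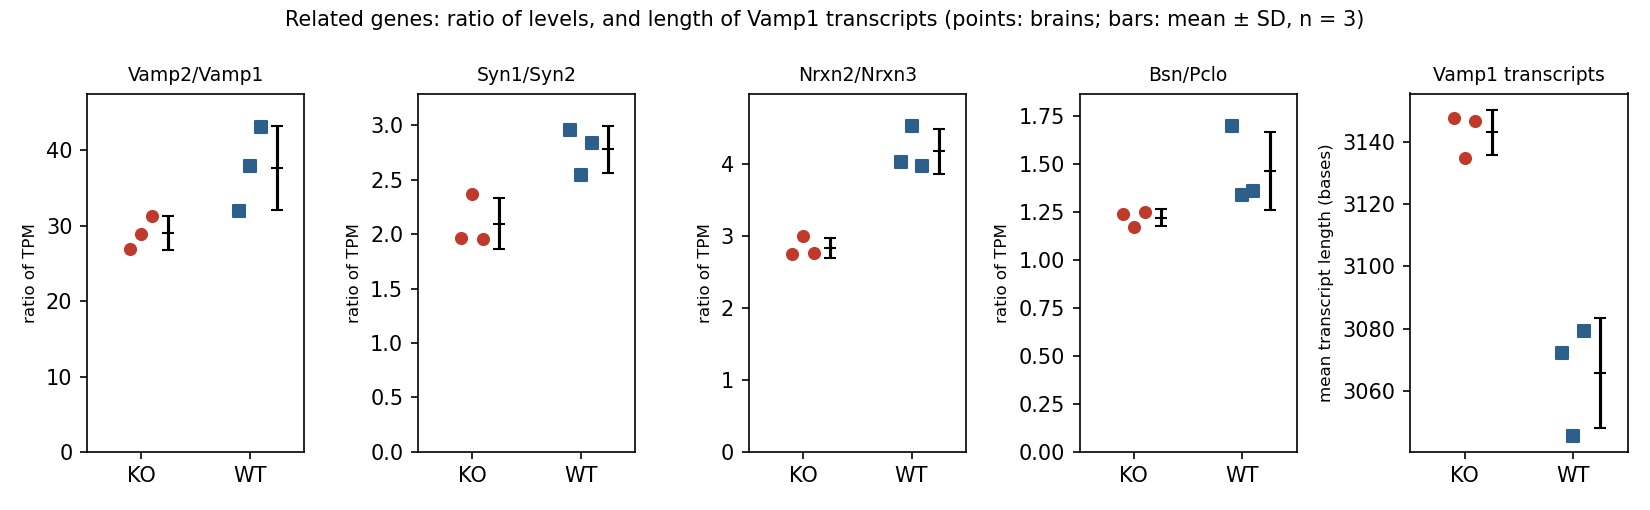
TPM ratios of the 4 chosen pairs of related genes whose groups did not overlap (axes starting at 0) and mean Vamp1 transcript length in bases (axis not starting at 0) in 3 KO (circles, left) and 3 WT (squares, right) brains, with mean ± SD. All 4 ratios are lower in every KO brain than in any WT brain, with Nrxn2 over Nrxn3 at 2.83 in KO and 4.17 in WT, and Vamp1 transcripts are longer in every KO brain.

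Wider lists of related genes also held mostly negative values. Of 69 tested further presynaptic genes, edgeR called 0, with 7 lower and 0 higher at an unadjusted p below 0.05, beside 9.31% lower and 10.3% higher of all genes. Of their fold changes, 54 lay below 0 (median -0.24), beside 50.1% of all genes. DESeq2 called 3 of them lower (Snap29, Rab3c and Slc17a6), beside 4.06% of all genes, so the shares called lower were close to those over all genes. Rab3c, a vesicle GTPase related to Rab3a, had 284, 364 and 221 CPM in KO, against 476, 478 and 428 CPM in WT (log2 fold change -0.67 ± 0.18, edgeR adjusted p = 0.138). Slc17a6, the vesicular glutamate transporter VGLUT2 of subcortical neurons, had 73.3, 86.1 and 66.2 CPM in KO, against 125, 113 and 88.6 CPM in WT. Of 50 further genes of neuronal maturation, edgeR called 0, with 13 lower and 0 higher at an unadjusted p below 0.05, beside the same 9.31% and 10.3% of all genes. Of their fold changes, 48 lay below 0 (median -0.25), beside 50.1%. DESeq2 called 6 lower (Map1b, Dpysl2, Dpysl3, Dpysl5, Elavl2 and Rbfox2), beside 4.06% of all genes. Elavl2, an RNA-binding protein of early neurons, had 141, 140.2 and 145 CPM in KO, against 207, 179 and 215 CPM in WT (log2 fold change -0.50 ± 0.08, edgeR adjusted p = 0.0555). Map1b, a microtubule protein of growing axons, had 3665, 4141 and 3462 CPM in KO, against 4659, 5338 and 5095 CPM in WT. The genes named here were chosen after their values were seen.

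Markers of some other cells also differed between the groups. Microglial markers (7 genes, none at 0 in any brain) summed to 83.3, 87.9 and 113 CPM in KO, against 45.5, 69.9 and 51.9 CPM in WT. Of these 7, edgeR called Cx3cr1 higher (adjusted p = 0.0395), beside 0.511% of all genes higher, and DESeq2 called 5 higher, beside 4.81%. Endothelial markers (6 genes, none at 0) summed to 279, 268 and 376 CPM in KO, against 230.4, 243 and 208 CPM in WT. Of these 6, edgeR called 0 and DESeq2 called 4 higher, beside the same shares of all genes. The part of these cells in the lower neuronal values was not tested. With a midbrain score (En1, En2 and Pax5 averaged as log2 CPM) in the fit, the median over the 32 genes was -0.17 and 27 fold changes were negative. Every KO brain lay below every WT brain in that score, so the fit cannot fully separate the score from genotype. Snap25 and Sv2b were negative in that fit but not without the score, and Syn2, Sv2a and Rab3a were positive in it but not without the score. Dcx then had -0.68 ± 0.16 and Nefl -0.23 ± 0.88. Sums of progenitor, intermediate progenitor, motor neuron, pericyte, meningeal, choroid plexus, oligodendrocyte, thalamic, erythroid and sensory ganglion markers overlapped between the groups. Erythroid sums were 488, 610 and 734 CPM in KO, against 719.9, 465 and 226 CPM in WT. Only WT 1 lay in the KO range. In WT 1 the globin gene Hbb-y had 374 CPM, against 1.65 and 10.4 CPM in WT 2 and WT 3. Of the 5 erythroid genes, edgeR called 0 and DESeq2 called 2 higher (Hba-a1 and Hbb-bt), beside 0.511% and 4.81% of all genes. Sensory ganglion sums overlapped by KO 2 at 10.5 CPM and WT 3 at 10.2 CPM. Among progenitor markers, Fabp7 had 194, 212 and 186 CPM in KO, against 287, 327 and 270 CPM in WT. Its log2 fold change was -0.58 ± 0.09 (edgeR adjusted p = 0.0555, DESeq2 adjusted p = 5.87e-06). Of the 8 genes, DESeq2 called only Fabp7, beside 4.06% of all genes lower. Hes1 alone was higher in every KO brain, beside 14.6%. Of the 4 thalamic genes, DESeq2 called Lhx9 lower (adjusted p = 0.0298). These genes were named after their values were seen. None of the 8 Hox genes of the hindbrain was expressed highly enough to be tested, with sums between 0.126 and 0.456 CPM in KO and between 0.242 and 1.22 CPM in WT.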

How the data were processed

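RNA-seq was made from 3 KO and 3 WT brains. Per the labels' protocols, brains were frozen after dissection, RNA was extracted with Trizol and libraries came from a KAPA stranded mRNA kit. FastQC, Trimmomatic, STAR 2.5.3a and RSEM 1.2.28, with mm10 or GRCm38, are listed in the submitters' processing notes. Their order and settings, and whether counting used strand, were not given in the sources used here. Per the file headers, the deposited tables hold an expected count per gene (reads assigned by RSEM, with ambiguous ones divided by estimate), a TPM and a mean transcript length. Of the expected counts deposited by the authors, 98.9% to 99.0% lay within 0.005 of a whole number. The deposited FPKM values were not used.

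Expected counts were rounded and tested in edgeR 4.0.16 (R 4.3.3; filterByExpr, TMM, robust quasi-likelihood F test, two-sided), with Benjamini-Hochberg adjustment over 15848 genes, called below 0.05. Transcript length was tested as log2 with limma 3.58.1 over 6328 genes with at least 2 listed transcripts. DESeq2 1.42.0, limma-voom, limma on TPM (pseudocounts 1 and 0.1, TPM of at least 1 in 3 brains), other scalings and filters, a midbrain score and left-out brains were alternatives. Tests were checked on simulated data. Chi-square per degree of freedom between brains of the same group was 45.1 to 175, so no library was a repeat of another in its group. The 32 genes and all lists were chosen with earlier results of these data known. A second planned regional score and a few list genes are not reported here. Genes named are E4f1, the 32, genes of the wider lists called by DESeq2 (none was called by edgeR) and markers beside a result. Homer2 and Hdac1, called by neither, were named after their values were seen. Gene coordinates are from RefSeq, and promoters from its table on GRCm38.p6.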

Additional observations from a re-analysis of the deposited data

How the results depend on the processing

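The 32 genes had 0 calls in 17 of 20 alternatives, 5 with DESeq2 and 2 with limma on log2(TPM + 1) or log2(TPM + 0.1). Over all genes, 159 calls became 1438 with DESeq2, 245 and 248 with log2(TPM + 1) and log2(TPM + 0.1), and 0 with the midbrain score (405 higher and 336 lower at an unadjusted p below 0.05) or with WT 1, WT 2, KO 1 and KO 2 alone (737 higher and 809 lower). Leaving out 1 brain gave 36 to 82. Of the 69 further presynaptic genes, DESeq2 called 3. Of the 50 neuronal ones it called 6, log2(TPM + 1) and log2(TPM + 0.1) 1 each, a minimum of 1 CPM in 3 brains 1, and leaving out 1 brain 0 to 1 (1 without WT 2). The median of the 32 genes lay between -0.45 and -0.12, and transcript length gave 0 calls in 10 alternatives. The causes were not tested.

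Replicate numbers are not stated to pair brains, and deviations of same-numbered brains correlated at 0.131, 0.174 and 0.001; with the replicate number as a block, 66 genes were called, 0 of the 32, and Rbfox3 had 0.0038.

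Of 640 fold changes of single genes under alternatives, 603 kept direction and side of the threshold, 9 passed it and 28 changed sign, in 11 genes that were not called in any fit. Rbfox3 had 0.0014 with DESeq2, 0.0084 with limma-voom, 0.0654 with library totals, 0.0218 with upper quartile, 0.0908 in the 4 brains alone, and without 1 brain -0.1111 to 0.0845 (0.0544 without KO 3, 0.0242 without WT 3). Vamp1 had -0.0097 and -0.0090 with log2(TPM + 1) and log2(TPM + 0.1), -0.0541 in the 4 brains and -0.1014 without WT 3 to 0.1864 without WT 2. Unc13a had 0.0006 with library totals, 0.0553 in the 4 brains, 0.0441 without KO 3, and -0.2199 to 0.0979 without 1 brain. Sncb had 0.0132 with limma-voom and -0.5067 without WT 1 to 0.3461 without WT 2. With the midbrain score, Snap25 had -0.0234, Syn2 0.0491, Sv2a 0.0391, Sv2b -0.1237 and Rab3a 0.0006. Without WT 2, Syn2 had 0.2038, Syp 0.0567 and Rab3a 0.0471, against -0.3151, -0.3225 and -0.19 without WT 1. Nrxn3 had -0.1088 without KO 2 and 0.2487 without KO 3.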

Other observations

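Genes for the receiving side of the synapse were measured in the same fit. Of 24 postsynaptic genes, edgeR called 0, with 5 lower and 1 higher in KO at an unadjusted p below 0.05, beside 9.31% lower and 10.3% higher of all genes. DESeq2 called 2 lower (Shank1 and Grik2), beside 4.06% of all genes. Their median log2 fold change was -0.30, and 20 of the 24 were negative, beside 50.1% of all genes. Shank1, a scaffold of excitatory synapses, had 245, 317 and 202 CPM in KO, against 337, 514 and 401 CPM in WT, with no overlap (log2 fold change -0.71 ± 0.21, edgeR adjusted p = 0.164). Homer2, a scaffold that binds glutamate receptors, was the gene higher by unadjusted p, with 76.1, 67.9 and 76.0 CPM in KO, against 54.9, 63.0 and 65.1 CPM in WT.

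Of 9 genes for REST and its partners, which repress neuronal genes in other cells, edgeR and DESeq2 called 0. Over all genes, edgeR called 0.511% higher and 0.492% lower, and DESeq2 4.81% and 4.06%. The median log2 fold change of the 9 genes was 0.15, with 8 of 9 positive, beside 50.1% of all genes negative. Hdac1, a histone deacetylase of that complex, had 77.0, 68.7 and 84.8 CPM in KO, against 62.0, 48.8 and 62.8 CPM in WT, with no overlap (log2 fold change 0.41 ± 0.13, edgeR adjusted p = 0.171). It was the 1 gene of this list at an unadjusted p below 0.05, beside 10.3% of all genes higher at that p and 14.6% with every KO brain above every WT brain, so this share was close to that over all genes. The genes named in this part were chosen after their values were seen.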
